A study of Mus musculus with 52 samples.

Results

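Transcription factor genes that mark position along the limb and in the jaw were followed in primary mouse osteosarcomas: Tbx5, Tbx4, Pitx1, Lhx9, Lhx2, Lmx1b, Shox2, Lhx8, Barx1 and Hand2. These 10 genes were taken by name from the 20730 genes of the table, and all 10 had a row. They were picked after genotype differences of Lhx8 and Lhx9 in these same samples were known. The question attached to them was whether the genotype differences of Lhx8 and Lhx9 go with the skeletal site of the tumours. Site is not given in the labels used here, so the Hox genes, read as markers of position, stood in for it.

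During development these factors give bone-forming cells their address. Tbx5 marks the forelimb bud, while Pitx1 and Tbx4 mark the hindlimb bud. The LIM homeodomain factors Lhx9, Lhx2 and Lmx1b pattern the limb bud along its axes, and Shox2 acts in its proximal segment. Lhx8 and Barx1 are expressed in the mesenchyme of the first pharyngeal arch, which forms the jaw and the teeth. Hand2 acts in both the posterior limb bud and the lower jaw, and the Hox clusters set position along the trunk and the limb.

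The samples were 52 libraries of total RNA from flash-frozen primary osteosarcomas, read as stranded mRNA-seq. The p53R172H/fl group had 19 libraries and the p53R245W/fl group had 17. In both, 1 allele of Trp53, the gene of the tumour suppressor p53, carries the named missense change and the other is conditional (fl). The p53fl/fl group, with 2 conditional alleles and 16 libraries, served as the comparison. The Cre driver, the age of the mice and any treatment are not given in the labels used here.

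Many libraries were not independent of each other. In 18 cases a library matched 1 other library of its own genotype, with a Spearman rho of 0.633 to 0.923 across 14449 genes against at most 0.507 for any other pair. Matched libraries were summed, which left 34 samples, called tumours here and named by 1 or both library numbers: 13 p53R172H/fl, 11 p53R245W/fl and 10 p53fl/fl tumours. Whether matched libraries come from 1 piece of tissue, 1 tumour or 1 animal is not stated in the labels. P-values therefore measure the spread between these samples. Trp53 itself had 26.9 to 48.7 CPM (counts scaled to a common library size) in p53R172H/fl, 22.3 to 55.4 CPM in p53R245W/fl and 9.8 to 19.5 CPM in p53fl/fl tumours. The missense groups did not overlap with p53fl/fl. The 10 bone markers, among them Col1a1, Sp7 and Ibsp, summed to 42100 to 171000 CPM in p53R172H/fl, 3080 to 178000 CPM in p53R245W/fl and 35400 to 163000 CPM in p53fl/fl tumours. Col1a1 was below 13 log2 CPM in 3 p53R245W/fl tumours, 1580, 1831/494 and 1835/408.

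Library set, read from the prefixes of the column names, went with genotype. Sets B and C each have a prefix of their own, and set A holds all other libraries. The set A prefixes are FM and FNM in p53fl/fl and WFM and WFNM in p53R172H/fl, so prefix and genotype cannot be told apart there. The meaning of M and NM is not given in the labels used here, and a difference between them was not tested. Of the tumours, 8 p53R172H/fl, 0 p53R245W/fl and 8 p53fl/fl had their first library in set A, and 5, 11 and 2 in set C, in the same order of genotypes. In set C, lane also went with genotype, since 10 of the 11 p53R245W/fl libraries and none of the other 7 were in lanes 4 or 5. In a bulk sample, fewer cells that express a gene and less RNA of it per cell cannot be told apart.

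The data gave a plain picture of these genes. Shox2 was on in every tumour and Lhx2 in most, and the other 8 genes were near 0 in most tumours and high in a few. The genotype difference of Lhx9 rested on 1 p53fl/fl tumour, 562/475. The higher mean of Lhx8 in p53R245W/fl rested largely on 1 tumour, 1835/408. At least 1 Lhx8 count was found in 10 of 11 p53R245W/fl tumours and 5 of 10 p53fl/fl tumours. The same held for 5 of 13 p53R172H/fl tumours, at 1 to 5 counts each. These counts depend on depth, and Lhx8 was picked with its difference known, so they are a description with no test. The summed Hox level passed the permutation test in no pair of genotypes.

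**Figure D1:**
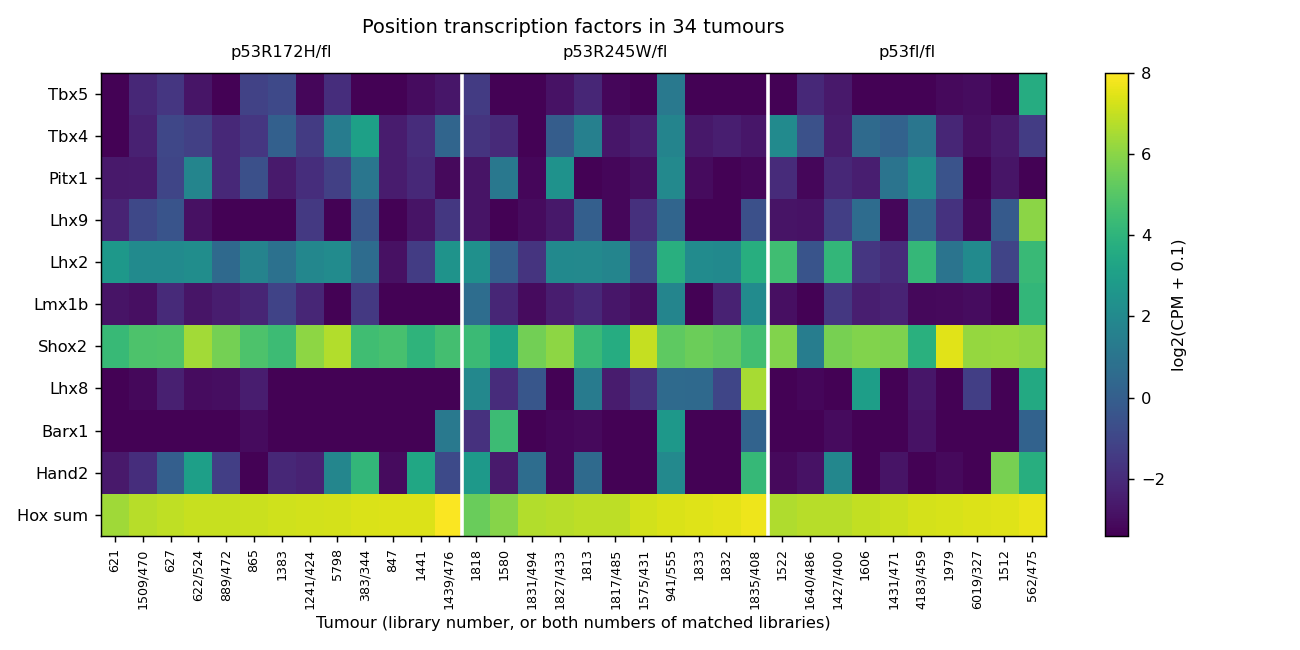
Level of each of the 10 genes and the summed level of 34 Hox genes (rows) in 34 tumours (columns), as log2(CPM + 0.1) in colour. Tumours are grouped by genotype and ordered by Hox level within it. Shox2 is bright in every column, while Lhx9 has 1 bright tumour, p53fl/fl 562/475, and Lhx8 has its brightest in p53R245W/fl 1835/408.

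The LIM homeodomain genes Lhx9, Lhx8 and Lmx1b were all high in tumour 562/475. In tumour 1835/408, the top for Lhx8, Lhx9 was at 0.546 CPM. Lhx2, another gene of this family, was at 19.7 CPM in 562/475 and 13.3 CPM in 1835/408. For Lhx9, Lhx8 and Lmx1b, the promoter windows are shown to let the sequence be read beside the values. Each window runs from 250 bases before to 50 bases after the RefSeq start on GRCm38.p6, 5′ to 3′ on the strand of the gene, with CG dinucleotides in capitals. Lhx9 is at chr1:138842395-138842694, Lhx8 at chr3:154330511-154330810 and Lmx1b at chr2:33641049-33641348, all on the minus strand.
Lhx9: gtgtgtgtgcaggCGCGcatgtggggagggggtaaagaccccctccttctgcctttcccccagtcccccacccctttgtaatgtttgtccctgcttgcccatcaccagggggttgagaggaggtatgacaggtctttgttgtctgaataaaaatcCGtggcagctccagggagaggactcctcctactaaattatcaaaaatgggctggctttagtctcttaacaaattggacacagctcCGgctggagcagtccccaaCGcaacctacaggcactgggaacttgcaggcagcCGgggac
Lhx8: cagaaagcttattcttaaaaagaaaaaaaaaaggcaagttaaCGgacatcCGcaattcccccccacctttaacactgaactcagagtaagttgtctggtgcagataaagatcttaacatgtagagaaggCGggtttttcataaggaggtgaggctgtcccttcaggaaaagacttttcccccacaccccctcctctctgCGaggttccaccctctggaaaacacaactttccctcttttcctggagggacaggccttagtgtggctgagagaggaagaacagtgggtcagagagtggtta
Lmx1b: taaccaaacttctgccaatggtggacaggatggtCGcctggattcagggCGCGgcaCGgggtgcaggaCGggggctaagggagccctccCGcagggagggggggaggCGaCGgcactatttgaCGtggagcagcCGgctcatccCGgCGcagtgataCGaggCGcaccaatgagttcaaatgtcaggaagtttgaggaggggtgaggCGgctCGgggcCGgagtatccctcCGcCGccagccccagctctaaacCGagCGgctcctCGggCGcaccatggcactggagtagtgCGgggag
The Lhx9 window held 6 CG dinucleotides, the Lhx8 window 4 and the Lmx1b window 24, beside a median of 7 over all 32851 mouse promoter windows. Of the 10 genes, 8 had such a window, and the highest count was 50 in Barx1. Neither the homeodomain core TAATTA nor the T-box core AGGTGT, searched on both strands, was in the 3 windows shown. TAATTA occurred in 5.29% and AGGTGT in 13.7% of all windows, and the Hand2 window held 1 TAATTA.

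Lhx9 is a LIM homeodomain factor of the limb mesenchyme and the gonad. GENCODE M21 places it at chr1:138825186-138848577 on GRCm38, and the promoter window above lies inside that span. Its level was 0 to 0.679 CPM in p53R172H/fl with a median of 0.0442, 0 to 1.16 CPM in p53R245W/fl with a median of 0.0423, and 0.00918 to 64.7 CPM in p53fl/fl tumours with a median of 0.255. The ranges overlapped, and the top p53fl/fl value belonged to tumour 562/475. That tumour held 7016 of the 7270 Lhx9 counts of its genotype, and 91% of those of all 34 tumours. The next highest were p53fl/fl tumour 1606 at 1.44, p53R245W/fl tumour 941/555 at 1.16 and p53fl/fl tumour 4183/459 at 1.08 CPM. No other tumour reached 1 CPM. Both matched libraries of tumour 562/475 showed it, with 60.5 CPM in library 562 and 68.8 CPM in library 475. The pairs of the other matched tumours named were split around 1 CPM. Lhx9 was at 0.83 CPM in library 941 and 1.495 in library 555, and at 0.67 in library 4183 and 1.39 in library 459.

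The fitted difference of Lhx9 followed that tumour. The log2 fold change was -5.17 (SE 1.33) for p53R172H/fl over p53fl/fl and -4.66 (SE 1.39) for p53R245W/fl over p53fl/fl. It was 0.52 (SE 1.17) for p53R245W/fl over p53R172H/fl. Without tumour 562/475 the same 3 values were -1.18 (SE 1.02), -0.67 (SE 1.05) and 0.51 (SE 0.97). Lhx9 was chosen with these differences known, so they are given as a description with no test. In DESeq2, which replaced the 7016 counts of tumour 562/475 as an outlying count, the differences from p53fl/fl were -1.10 and -0.61.

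Lhx8 is a LIM homeodomain factor of the oral mesenchyme and of forebrain neurons. It lies at chr3:154306294-154330659 on the minus strand in GENCODE M21. Its level was 0 to 0.0898 CPM in p53R172H/fl with a median of 0, 0 to 91.8 CPM in p53R245W/fl with a median of 0.673, and 0 to 11.5 CPM in p53fl/fl tumours with a median of 0.00517. The p53R172H/fl tumours were low throughout, with 14 counts in all among 861167390 counted reads of 13 tumours. Tumour 1835/408 held 8736 of the 9406 counts of p53R245W/fl. The other p53R245W/fl tumours at or above 1 CPM were 1818 at 3.70, 1813 at 2.43, 941/555 at 1.35 and 1833 at 1.31. In p53fl/fl, 2 tumours were at or above 1 CPM, 562/475 at 11.5 and 1606 at 7.88. In the 3 of these 7 tumours that had matched libraries, both libraries were at or above 1 CPM, and no pair was split. Library 408 had 97.2 CPM and library 1835 had 90.3 CPM.

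**Figure D2:**
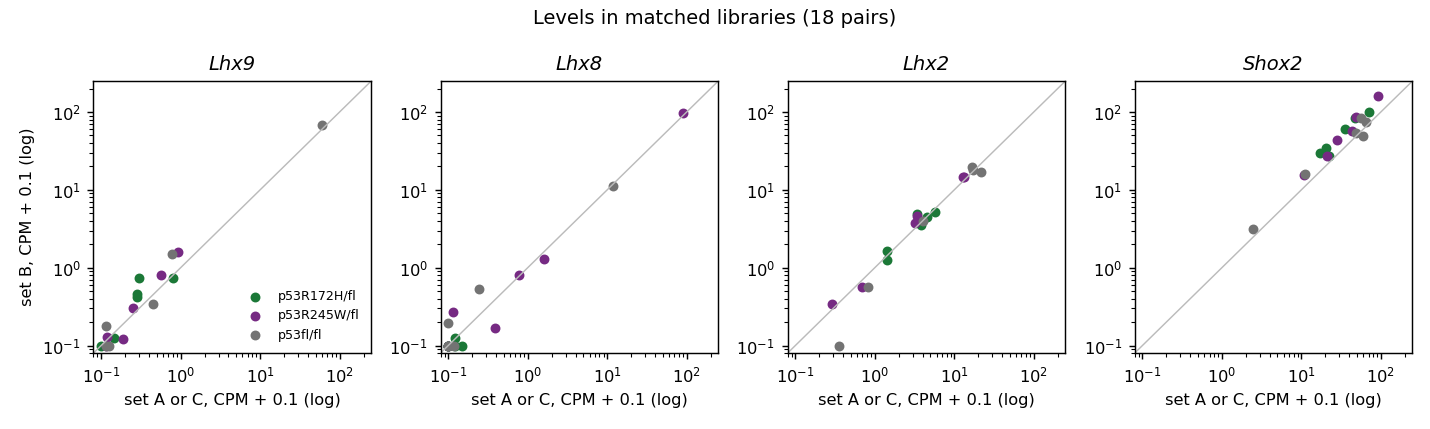
CPM + 0.1 on log axes of Lhx9, Lhx8, Lhx2 and Shox2 in the set B library (vertical) against the matched library of set A or C (horizontal) of 18 tumours, coloured by genotype, with the line of equality. The high Lhx9 tumour at 60.5 and 68.8 CPM and the high Lhx8 tumour at 90.3 and 97.2 CPM lie near the line.

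The log2 fold change of Lhx8 was -6.75 (SE 1.62) for p53R172H/fl over p53fl/fl, 2.24 (SE 1.37) for p53R245W/fl over p53fl/fl and 8.98 (SE 1.73) for p53R245W/fl over p53R172H/fl. The difference of p53R245W/fl from p53fl/fl changed sign with 1 tumour, to -0.95 (SE 1.18) without tumour 1835/408, while that from p53R172H/fl was 5.79 (SE 1.37) there. Without tumours 562/475, 1835/408 and 1606, the 3 values were -1.40 (SE 1.04), 4.39 (SE 1.15) and 5.79 (SE 1.04). That removal took out the 2 p53fl/fl tumours at or above 1 CPM of Lhx8, but 1 of the 5 such p53R245W/fl tumours. The 4.39 is therefore shaped by which tumours were removed, and it was 0.18 with only 562/475 and 1835/408 removed. These are descriptions with no test, as for Lhx9. DESeq2 replaced the Lhx8 counts of tumours 1835/408 and 562/475 and gave -5.60, 0.17 and 5.77.

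Lhx8 also moved with lane. Within set C, lane 5 held 3 p53R245W/fl libraries at 1.26 to 3.66 CPM. Lane 4 held 7 p53R245W/fl libraries with a median of 0.385 and a highest value of 90.3 CPM. Lane 3 held 1 p53R245W/fl library at 0.155, 5 p53R172H/fl libraries of at most 0.0496 and 2 p53fl/fl libraries of 0 and 0.146 CPM. Genotype and lane cannot be told apart there. In set B, all libraries were in lane 1, with 6 of each genotype, and each is the match of a set A or C library. Lhx8 had 4, 6, 0, 26, 3631 and 60 counts in the 6 p53R245W/fl libraries of that set. The 6 p53R172H/fl libraries had 0, 0, 0, 0, 1 and 0 counts, and the 6 p53fl/fl libraries had 0, 0, 0, 4, 532 and 23. In edgeR, with library set as a covariate, the log2 difference of p53R245W/fl from p53R172H/fl was 10.89, and within set C it was 9.91. In limma voom over all libraries, with a term for set and a correlation of matched libraries, the difference was 4.83 (SE 1.54), less than in either of these. In that fit Lhx8 was at -1.84 (SE 1.75) for p53R172H/fl and 2.99 (SE 1.58) for p53R245W/fl over p53fl/fl, and Lhx9 was at -1.998 (SE 1.15) and -1.73 (SE 1.26), in the same order.

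**Figure D3:**
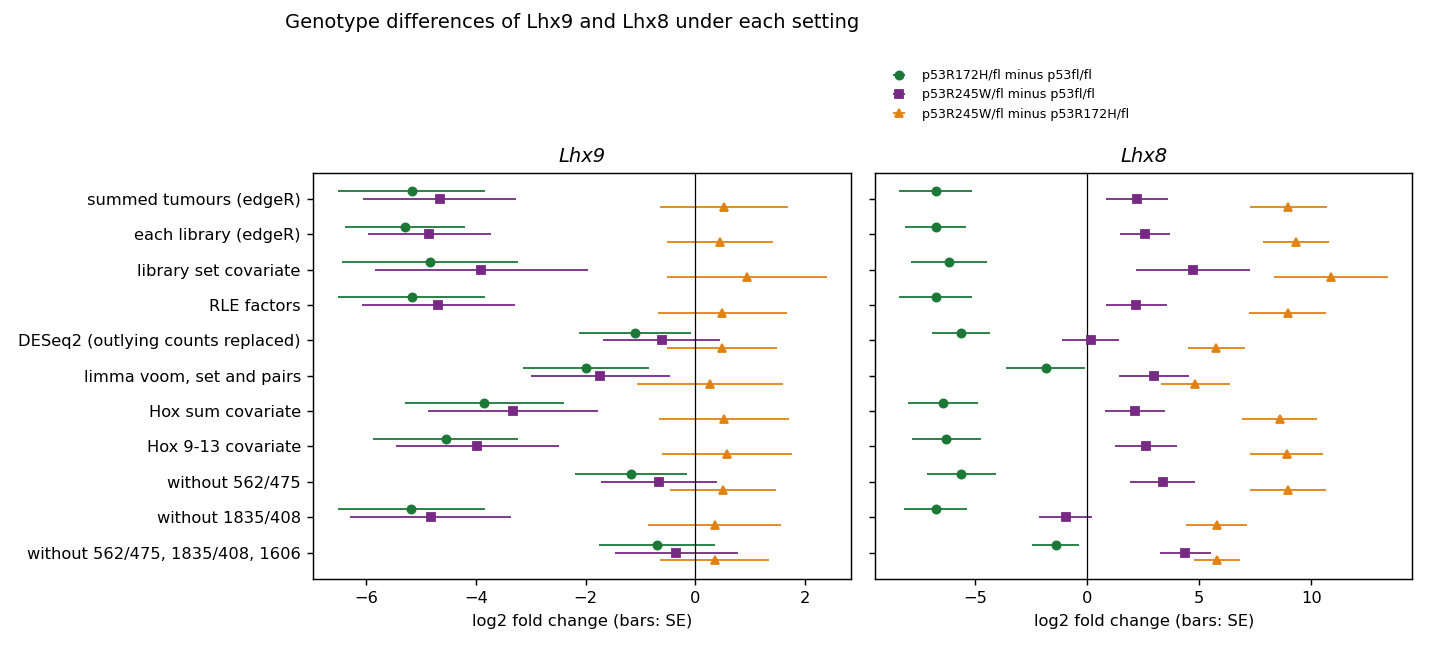
Log2 fold change of Lhx9 and Lhx8 (horizontal, bars are 1 SE) in the 3 genotype comparisons under 11 ways of fitting (rows). The Lhx9 differences from p53fl/fl are -5.17 and -4.66 in the first row and -1.18 and -0.67 without tumour 562/475, and Lhx8 in p53R245W/fl minus p53fl/fl crosses 0 without tumour 1835/408.

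The other genes are given by role, first those of the forelimb and hindlimb. Tbx5, which starts forelimb outgrowth, had 0 to 0.444 CPM in p53R172H/fl, 0 to 2.20 CPM in p53R245W/fl and 0 to 12.7 CPM in p53fl/fl tumours. Only tumours 562/475 and 941/555 were at or above 1 CPM, and these were also 2 of the 4 tumours with Lhx9 at that level. Without tumour 562/475 the highest p53fl/fl value of Tbx5 was 0.134 CPM. Tbx4, the hindlimb paralogue, had 0 to 8.24 CPM in p53R172H/fl with a median of 0.275. It had 0 to 3.23 CPM in p53R245W/fl with a median of 0.0854, and 0.0323 to 4.01 CPM in p53fl/fl tumours with a median of 0.427. It reached 1 CPM in 3, 2 and 4 tumours, in the same order of genotypes. Pitx1, the homeodomain factor that acts upstream of Tbx4 in the hindlimb, had 0.0176 to 3.37 CPM in p53R172H/fl, 0 to 5.19 CPM in p53R245W/fl and 0 to 4.51 CPM in p53fl/fl tumours. For both genes the high tumours came from every genotype.

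With genotypes pooled, Pitx1 and Tbx4 tended to be high in the same tumours. Their log2 CPM correlated over 34 tumours (Pearson r = 0.471, permutation p = 0.00502; Spearman rho = 0.479, permutation p = 0.00435). Adjusted over the 3 pairs of hindlimb genes computed, the p-values were 0.0151 and 0.013, and these pairs were chosen after the data were seen. Without the 2 tumours farthest from the median of Pitx1, r was 0.419, and tumours extreme in Tbx4 alone were kept. It was 0.329 (permutation p = 0.211) in set A and 0.557 (permutation p = 0.0151) in set C. Within p53R172H/fl, p53R245W/fl and p53fl/fl tumours r was 0.419, 0.524 and 0.451 (permutation p = 0.156, 0.0924 and 0.19). Without the 2 tumours of each genotype farthest from its median of Pitx1, r was 0.185, -0.000883 and 0.14. The other pairs had r = 0.313 for Hoxc10 with Pitx1 (permutation p = 0.0707) and 0.121 for Hoxc10 with Tbx4 (permutation p = 0.497). Tumour 562/475, the highest for Tbx5, had 0 CPM of Pitx1 and 0.286 CPM of Tbx4.

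Lhx2, which with Lhx9 keeps the limb bud growing, was at or above 1 CPM in 25 of 34 tumours. It had 0.0367 to 6.30 CPM in p53R172H/fl with a median of 3.57, 0.207 to 13.8 CPM in p53R245W/fl with a median of 3.87, and 0.147 to 22.7 CPM in p53fl/fl tumours with a median of 2.96. The 4 highest tumours were all p53fl/fl, 1522, 562/475, 4183/459 and 1427/400 at 17.7 to 22.7 CPM, but 4 other p53fl/fl tumours were below 1 CPM. Lmx1b, the factor that gives the limb its dorsal side, had 0 to 0.361 CPM in p53R172H/fl, 0 to 4.22 CPM in p53R245W/fl and 0 to 17.8 CPM in p53fl/fl tumours. Its 4 tumours at or above 1 CPM, 562/475, 1835/408, 941/555 and 1818, were all among the 7 with Lhx8 at that level. They were likewise all among the 12 with Hand2 and the 25 with Lhx2 at that level.

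Shox2, a homeodomain factor of the upper limb segment, was the highest of the 10 per kilobase of exon, with a median of 11.1 CPM per kb, against 0.872 for Lhx2 and at most 0.0647 for the rest. It had 15.9 to 104 CPM in p53R172H/fl with a median of 28, 9.12 to 126 CPM in p53R245W/fl with a median of 35.7, and 2.64 to 181 CPM in p53fl/fl tumours with a median of 56.8. The groups overlapped almost wholly. Shox2 overlaps Rsrc1 on the other strand, and whether the counting used strand is not given in the sources used here. In 17 of 18 pairs Shox2 was higher in the set B library than in its match, with a median size of the log2 difference of 0.51.

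Barx1, a factor of the jaw and stomach mesenchyme, was at 0 in most tumours. It had 0 to 2.18 CPM in p53R172H/fl, 0 to 20.9 CPM in p53R245W/fl and 0 to 1.02 CPM in p53fl/fl tumours, with its highest value in p53R245W/fl tumour 1580, a tumour of low Col1a1. Hand2, a basic helix-loop-helix factor, had 0 to 17.5 CPM in p53R172H/fl, 0 to 18.5 CPM in p53R245W/fl and 0 to 50.4 CPM in p53fl/fl tumours. It reached 1 CPM in 4, 5 and 3 tumours, in the same order. It overlaps Hand2os1 on the other strand.

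**Figure D4:**
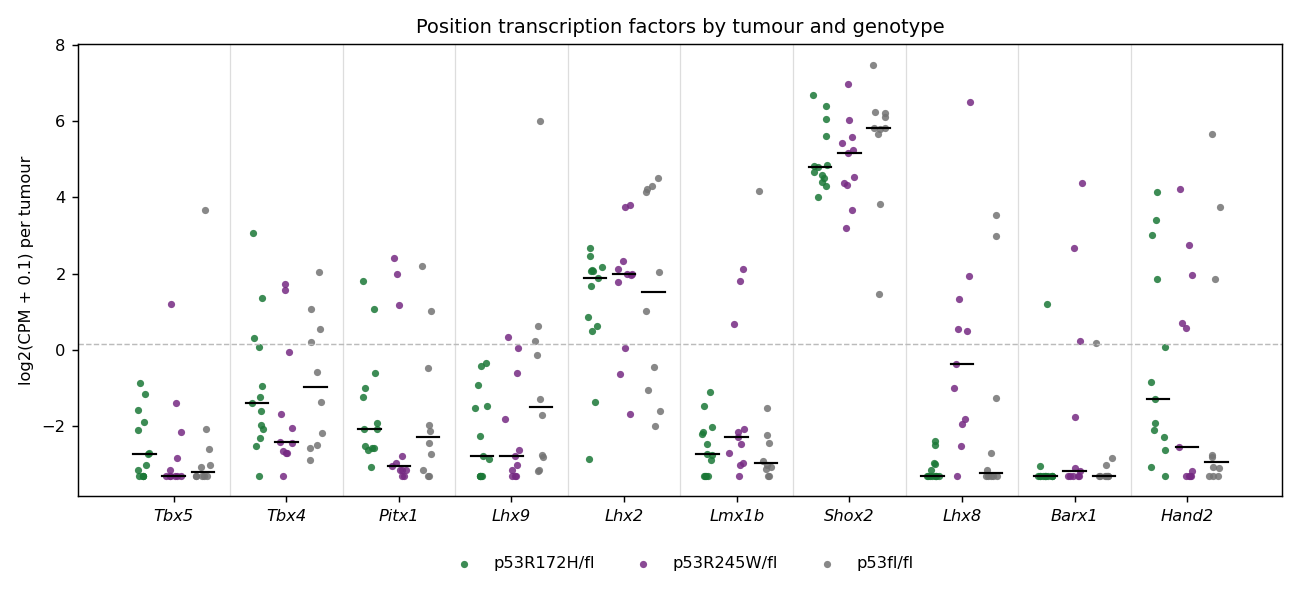
Level of each gene in each tumour as log2(CPM + 0.1), with p53R172H/fl at the left, p53R245W/fl in the middle and p53fl/fl at the right of each gene. Points are tumours, black bars are medians, and the dashed line is 1 CPM. The genotypes overlap for every gene, and the 8 genes other than Shox2 and Lhx2 have medians below 1 CPM in each genotype.

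All genes were tested together with edgeR's quasi-likelihood test. Tbx5, Lmx1b and Barx1 did not pass the filter on low counts, so 7 of the 10 genes were tested. Of these 7, 0 were called for p53R172H/fl over p53fl/fl, where 0.259% of 19726 genes were called (0.071% higher, 0.188% lower). In p53R245W/fl over p53fl/fl, 1 was called, Lhx9 lower, where 9.04% of all genes were called (4.68% higher, 4.35% lower). In p53R245W/fl over p53R172H/fl, 1 was called, Lhx8 higher, where 15.2% of all genes were called (8.8% higher, 6.41% lower). Both were known when the genes were chosen, so nothing is read from these counts. The median log2 fold change of the 7 was -1.08, -0.67 and 0.52 in these 3 comparisons, beside -0.03, 0.02 and 0.06 for all genes tested.

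None of the other 5 tested genes passed in any comparison. Lhx2 was at -1.48 (SE 0.73) for p53R172H/fl over p53fl/fl, with an adjusted p of 0.434 from edgeR. Shox2 was at -0.68 (SE 0.44) for p53R172H/fl over p53fl/fl and -0.67 (SE 0.46) for p53R245W/fl over p53fl/fl, with adjusted p of 0.591 and 0.397 from edgeR. Hand2, Pitx1 and Tbx4 lay between -1.22 and 0.86 with SE near or above 0.95, so differences of several fold in either direction were not detectable here. With no filter, Tbx5, Lmx1b and Barx1 could be fitted, and none had an adjusted p under 0.05 in edgeR.

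The summed Hox level of the genotypes overlapped widely. The summed level of the 34 Hox genes in the table was 82.6 to 243 CPM in p53R172H/fl with a median of 143, 41.6 to 209 CPM in p53R245W/fl with a median of 117, and 99.8 to 195 CPM in p53fl/fl tumours with a median of 146. The difference of mean log2(summed CPM + 1) was 0.02 for p53R172H/fl minus p53fl/fl (two-sided permutation p = 0.871, adjusted 0.871). It was -0.24 for p53R245W/fl minus p53fl/fl (permutation p = 0.347, adjusted 0.521) and -0.27 for p53R245W/fl minus p53R172H/fl (permutation p = 0.256, adjusted 0.521). Of 30 Hox genes tested singly, 0, 0 and 1 were called by edgeR in these comparisons, where 0.259%, 9.04% and 15.2% of all genes were called. The 1 was Hoxd9, at 1.96 (SE 0.64, adjusted p = 0.0368), which averaged 1.15 ± 1.41 CPM in p53R245W/fl and 0.295 ± 0.349 CPM in p53R172H/fl tumours (SD, n = 11 and 13) and is named after its value was seen. It missed the threshold once library set was a covariate (adjusted p = 0.095) and without the tumours of low Col1a1 (adjusted p = 0.067). The 4 Hox genes of highest mean were Hoxb2 at 21.8, Hoxa9 at 11.9, Hoxb3 at 11.2 and Hoxa10 at 9.78 CPM.

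Over the 34 tumours, no gene of the 10 correlated with the summed Hox level after adjustment. For Barx1, at 0 in most tumours, r was -0.0499 and rho was 0.0267. Without the 2 tumours farthest from the median Hox level, its r was 0.511. For Lhx9, Pearson r was 0.251 (permutation p = 0.147, adjusted 0.734) and Spearman rho was 0.107 (permutation p = 0.543, adjusted 0.882), with r = 0.191 without the 2 tumours farthest from the median. For Lhx8, r was 0.007 (permutation p = 0.967, adjusted 0.967) and rho was 0.034 (permutation p = 0.85, adjusted 0.882), with r = 0.273 without the 2 farthest. Restricted to the 13 Hox genes of paralogue groups 9 to 13, Shox2 had r = 0.564 (permutation p = 0.00069, adjusted 0.0069). Its rho was 0.394 (permutation p = 0.0218, adjusted 0.218), and r was 0.474 without the 2 farthest by that restricted level. With the summed Hox level as a covariate in the edgeR fit, Lhx9 was at -3.85 (SE 1.45) for p53R172H/fl and -3.32 (SE 1.54) for p53R245W/fl over p53fl/fl. Lhx8 in p53R245W/fl over p53R172H/fl was at 8.59 with that covariate. A summed level is 1 coarse measure of position, so whether site accounts for either difference was not tested.

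**Figure D5:**
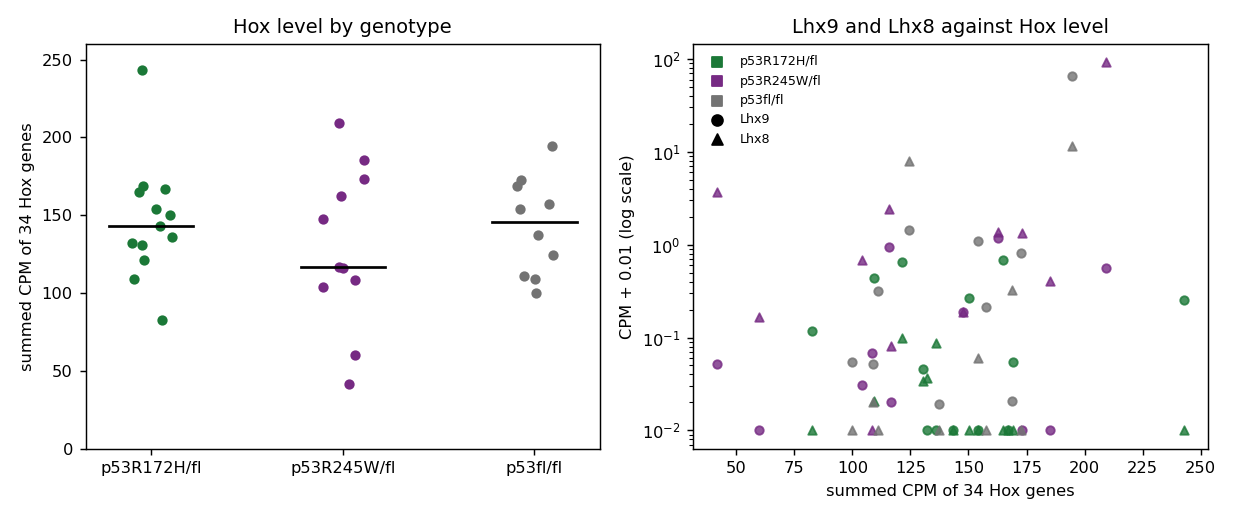
Left, summed CPM of 34 Hox genes in each tumour by genotype, with bars at the medians of 143, 117 and 146 CPM. Right, CPM + 0.01 of Lhx9 (circles) and Lhx8 (triangles) on a log axis against the same Hox level. The tumours of high Lhx9 or Lhx8 lie at Hox levels from 41.6 to 209 CPM.

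Single tumours differed in which Hox genes went with these factors. The tumours and genes in this and the next paragraphs were singled out after their values were seen. Tumour 562/475, with the top Lhx9, Tbx5 and Lmx1b, also had the highest Hoxa13 (7.12 CPM) and Hoxc4 (11.2 CPM) of the 34, while Hoxc10 was 0.498, Hoxc11 was 0 and Hoxd13 was 0.0369 CPM. Among limb bud genes it was the highest for Fgf10, the outgrowth signal of limb mesenchyme, at 10.2 CPM, for Meis2 at 107 CPM, for Tbx3 at 40.5 CPM and for Msx1 at 57 CPM. It was also the highest for the arch genes Dlx1 (11 CPM) and Dlx2 (7.92 CPM), and for Ldb1, the cofactor of LIM homeodomain proteins, at 130 CPM.

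Tumour 1835/408, with the top Lhx8, had another set. It had the highest Lmx1a (55.6 CPM), Six2 (62.8 CPM), Foxf2 (62.3 CPM), Hoxd13 (11.2 CPM) and Hoxc11 (10.9 CPM), but Tbx5 at 0 and Pitx1 at 0.0105 CPM. Gli1 and Ptch1, targets of hedgehog signalling, were at 2970 and 3330 CPM, beside medians of 6.65 and 58.5 CPM over all tumours. Markers of other cells went both ways here, with the keratinocyte and Schwann lists high. The macrophage list summed to 404 CPM beside a median of 1860, and the endothelial list to 236 CPM beside 450. Both were the lowest of the 34 tumours, and the skeletal muscle list was at 34.2 CPM beside a median of 851. The 8 keratinocyte and epithelial genes summed to 208 CPM beside a median of 6.34, with Dsp at 113 and Krt14 at 34.6 but Krt5 at 0.263 CPM. That sum ran from 1.76 to 47.9 CPM in p53R172H/fl, 3.18 to 208 CPM in p53R245W/fl and 3.35 to 14.7 CPM in p53fl/fl tumours. The 7 Schwann and neural crest genes summed to 1350 CPM beside a median of 20.8, most of it Ngfr at 1125 CPM, while Sox10 was 0.294 CPM. Their sum ran from 10.4 to 78.5 CPM in p53R172H/fl, 11.1 to 1350 CPM in p53R245W/fl and 12.8 to 28.9 CPM in p53fl/fl tumours. The 10 bone genes were the lowest of all tumours, at 3080 beside a median of 78600 CPM, with Runx2 at 188 and Sp7 at 121 CPM. The part of these markers in the Lhx8 value was not tested. In tumour 562/475 the keratinocyte list was at 3.35 and the Schwann list at 12.8 CPM, both below the medians. Its 10 skeletal muscle genes summed to 3030 CPM beside a median of 851, the highest of the p53fl/fl tumours. That sum ran from 109 to 18100 CPM in p53R172H/fl, 34.2 to 4250 CPM in p53R245W/fl and 18.4 to 3030 CPM in p53fl/fl tumours. Its 10 bone genes summed to 35400 CPM, the lowest of the p53fl/fl tumours. The part of these markers in the Lhx9 value was not tested.

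With matched libraries summed, tumour 941/555 was the only one with all 10 genes at or above 1 CPM. In its library 941, Lhx9 was below that, at 0.83 CPM. The tumour had Lhx2 at 13.8, Barx1 at 6.24, Pitx1 at 3.85 and Tbx5 at 2.20 CPM. It also had the highest Hoxb13 (4.53 CPM) and Hoxd9 (4.79 CPM). Tumour 1818 had the lowest Hox level, 41.6 CPM, most of it from Hoxb2 (22.6 CPM), Hoxb3 (8.35 CPM) and Hoxb4 (4.20 CPM), with Hoxc6 and Hoxa5 at 0. Its Alx1, a factor of the facial skeleton, was the highest at 30.2 CPM, as were Pax9 at 10.1 CPM and En1 at 9.04 CPM, and its Lhx8 was 3.70 CPM. Tumour 1606 had the highest Lhx6, the partner of Lhx8 in the oral mesenchyme, at 12.1 CPM beside its Lhx8 of 7.88 CPM. Hoxb2 was at 0.369 CPM there, but Hoxc6 was at 22.6, Hoxa9 at 16 and Hoxc10 at 12.7 CPM. The tumour was also the highest for the limb bud genes Grem1 (120 CPM) and Prrx2 (77.8 CPM). Of the arch genes, Dlx2 was at 4.64 CPM beside a median of 0.287, while Dlx5 was at 10.6 CPM beside 22 and Barx1 was at 0. The 4 highest Lhx8 tumours thus included Hox levels of 41.6, 124, 195 and 209 CPM.

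Genes next to the high factors were read in the same tumours. Around Lhx9, the nearest tested gene, 2310009B15Rik at 3406 bases, was at 7.19 CPM in tumour 562/475 beside a median of 6.96 in the others. Near Lhx8, Tyw3 was at 12.2 CPM in tumour 1835/408 beside 6.45, and Slc44a5 was at 0.021 CPM beside 0.0828. Near Tbx5, Tbx3 was the highest of all tumours in 562/475, at 40.5 CPM beside a median of 5.47. Near Lmx1b, C130021I20Rik at 682 bases was at 34.6 CPM in tumour 562/475, where no other tumour passed 5.86 CPM.

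Other genes of limb and jaw patterning were counted from lists. In p53R172H/fl over p53fl/fl, edgeR called 0 of 27 limb bud partners, 0 of 29 jaw and head partners and 0 of 11 LIM family genes and cofactors, where 0.259% of all genes were called. In p53R245W/fl over p53fl/fl, 3 limb genes rose, Ptch1 by 2.88 (SE 0.74, adjusted p = 0.013), Gli1 by 4.80 (SE 1.29, adjusted p = 0.0176) and En1 by 3.32 (SE 1.07, adjusted p = 0.0448). Of the jaw list Meox2 rose by 3.38 (SE 0.90, adjusted p = 0.0162), and of the LIM list Isl2 fell by 2.71 (SE 0.86, adjusted p = 0.0407). These were 3 of 27, 1 of 29 and 1 of 11 tested genes, beside 9.04% of all genes. In p53R245W/fl over p53R172H/fl, Gli1 and Ptch1 of the limb list, Six2, Foxc2 and Meox2 of the jaw list and Lmo4 of the LIM list were called higher, and Isl2 lower. These were 2 of 27, 3 of 29 and 2 of 11 tested genes, beside 15.2% of all genes, and nothing particular to the lists is read from the counts. Lmo4 is named after its value was seen. Gli1, Ptch1, Six2 and Foxc2 were highest in tumour 1835/408, and none of these 4 was called without it, with Gli1 at 0.60 and Ptch1 at 1.08 for p53R245W/fl over p53fl/fl. Lmo4 also missed the threshold there, with an adjusted p of 0.0861 from edgeR. Meox2 was at 350 CPM in tumour 1580 beside a median of 3.96 CPM, and without the tumours of low Col1a1 it was at 0.07 for p53R245W/fl over p53fl/fl. With library set as a covariate none of these genes had an adjusted p under 0.05 in edgeR. Isl2 had 0 to 1.54 CPM in p53R245W/fl, 0.0746 to 8.58 CPM in p53R172H/fl and 0.184 to 12.4 CPM in p53fl/fl tumours.

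The genes whose log2 CPM was most like that of the factors over the 34 tumours were searched among 15234 genes. For Lhx9 they were Sowahc (r = 0.66), Mga (r = 0.621), Hmgxb4 (r = 0.616), Hnrnph3 (r = 0.611) and Evc2 (r = 0.603). Leaving out tumour 562/475 brought these to 0.452, 0.582, 0.454, 0.369 and 0.355. For Lhx8 they were Mob4 (r = 0.699), Zfp85 (r = 0.698), Mfsd14b (r = 0.689), Lpar4 (r = 0.684) and Zfp748 (r = 0.675), at 0.606 to 0.642 without tumour 1835/408. Tbx5 was most like Gabra5, Ism2, Ikzf4, Rev3l and Cux2 (r = 0.65 to 0.695). Pitx1 was most like Fam120c, Ssh1, Huwe1, Rtp3 and Nf2 (r = 0.544 to 0.613), and Barx1 was most like Stxbp6, Prdm6, Wasf3, Lonrf2 and Tmem132c (r = 0.727 to 0.766). Only genes that passed the filter on low counts were searched. Tbx5, Lmx1b, Barx1, Hoxb13, Hoxc12, Hoxd1 and Hoxd13 could therefore not be among these 25. None of the other genes of the 10 and no other Hox gene was among them. The r values are descriptions, since the genes were picked for their size, and the tumours differ in library set and depth.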

How the data were processed

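The table holds raw counts per gene as deposited, with no normalization by the authors. Reads were aligned with STAR to GRCm38, per the submitters' processing notes, and no source used here names the counting program, its strand setting or the annotation release. Identifiers were joined to GENCODE M21, which named 20668 of 20730 genes, and the lowest total of any gene was 260 counts. Library totals ran from 21596798 to 67223388 counts, with a median of 51026968.5, and tumour totals from 42828952 to 118932168.

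Matched libraries were found by Spearman correlation (threshold 0.6) of log2 CPM across genes with a mean of at least 1 CPM, after genotype and set means were removed, with sex chromosome genes, the 10 genes and the Hox genes left out. Their counts were summed. An earlier description of these data treated every library as independent, which is kept as an alternative. edgeR 4.0.16 in R 4.3.3 fitted the 3 genotypes at once with TMM factors, filterByExpr at a minimum count of 10 and robust quasi-likelihood F tests. Adjusted p-values are Benjamini-Hochberg over 19726 genes, with a threshold of 0.05. CPM used TMM library sizes, and log2 CPM a prior count of 2. SE is the log2 fold change, without its sign, divided by the root of F. Hox levels and correlations were tested with 100000 permutations, adjusted over 3 comparisons and over the 10 genes. Scripts for tests across genes were tested on simulated data.

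The 10 genes, the lists and the tests were chosen with earlier results of these data known. Named genes are the 10, Trp53, called genes of the partner lists that average 1 CPM or more (up to 6 a comparison by p), the 4 Hox genes of highest mean and the 5 genes most like each of Lhx8, Lhx9, Tbx5, Pitx1 and Barx1. Genes outside that rule were chosen after their values were seen, as were the fits without tumours 562/475, 1835/408 or 1606, those within a library set, and the pairs of hindlimb genes. Alternatives were DESeq2 1.42.0, limma 3.58.1 voom with library set and correlation of matched libraries, RLE factors, set or Hox covariates, other filters and the removal of tumours of low Col1a1. Promoter windows are from RefSeq on GRCm38.p6.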

Additional observations from a re-analysis of the deposited data

Results flagged for a closer look

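In the 10 p53fl/fl tumours, the gap of tumour 562/475 to its nearest neighbour took an unusually large part of the whole range of log2 CPM for 4 of 11 quantities tested, by Dixon's ratio at its 95% critical value for 10 samples. The ratio was 0.758 for Barx1, 0.708 for Tbx5, 0.643 for Lmx1b and 0.505 for Lhx9. In each case tumour 562/475 was the high one, at 1.02, 12.7, 17.8 and 64.7 CPM in that order of genes. Lhx9 was chosen with its difference between genotypes known, so its ratio is a description that supports nothing. The critical value flags about 1 in 20 groups of normally distributed values by chance, and that rate need not hold here. Of the 10 tumours, 3 had any count of Barx1 and 5 any count of Tbx5. With so many values at the floor, a single expressing tumour gives a large ratio. The 4 flags also share 1 tumour, so they are not independent of each other.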

How the results depend on the processing

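The number of genes called moved far more with the handling of libraries than with normalization. In the order p53R172H/fl over p53fl/fl, p53R245W/fl over p53fl/fl and p53R245W/fl over p53R172H/fl it was 51, 1783 and 3000, against 708, 3365 and 5829 with each library as its own sample. It was 2, 3 and 293 with limma voom, library set and matched libraries (pair correlation 0.857). A covariate for library set left 63, 1 and 74. Within set C it was 0, 0 and 4 (edgeR, with 1652, 639 and 3934 at an unadjusted p under 0.05), and within set A 29 for p53R172H/fl. DESeq2 called 286 and no filter 135 genes for p53R172H/fl over p53fl/fl. The Hox 9 to 13 covariate left 1159 and 1861 genes in the comparisons of p53R245W/fl, and removal of low Col1a1 tumours left 853 and 1280. Removal of tumours 562/475 and 1835/408 gave 77 for p53R172H/fl, and removal of 1606 as well gave 20 there and 942 for p53R245W/fl over p53fl/fl. The cause was not tested.

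Among the other 5 tested genes, which passed under no alternative, these log2 fold changes turned sign. With limma voom, Hand2 was 1.70 for p53R172H/fl and 0.54 for p53R245W/fl over p53fl/fl, Lhx2 0.64 and Tbx4 0.12 for p53R245W/fl over p53fl/fl, and Pitx1 0.78 and -0.53 for p53R172H/fl and p53R245W/fl over p53fl/fl. For p53R245W/fl over p53R172H/fl it gave Pitx1 -1.31 and Tbx4 0.11. With library set as a covariate, Hand2 was 0.41 and Tbx4 0.39 for p53R245W/fl over p53fl/fl, and 0.84 and 0.29 over p53R172H/fl. Within set C, Hand2 was 10.5 for p53R172H/fl and 10.8 for p53R245W/fl over p53fl/fl, whose 2 tumours had 0 counts, and 0.34 for p53R245W/fl over p53R172H/fl. There Pitx1 was -1.13 for p53R245W/fl over p53fl/fl, and Tbx4 was -1.49 for p53R172H/fl over p53fl/fl and 0.95 for p53R245W/fl over p53R172H/fl. For p53R172H/fl over p53fl/fl, set A gave Pitx1 1.23 and DESeq2 gave Hand2 0.83. In turn, a minimum count of 50 gave Shox2 -0.019 for p53R245W/fl over p53R172H/fl, and the Hox and Hox 9 to 13 covariates gave Hand2 0.27 and 0.92 in that comparison and Tbx4 -0.091 and -0.11 for p53R172H/fl over p53fl/fl.

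The Hox level of p53R172H/fl minus p53fl/fl was -0.0241 for Hox 9 to 13, -0.00206 in set A and -0.0566 in set C, none past the threshold. For Hox 9 to 13, p53R245W/fl minus p53fl/fl was -0.912 (permutation p = 0.237, adjusted 0.356). The value for p53R245W/fl minus p53R172H/fl was -0.888 (permutation p = 0.162, adjusted 0.356). The SD was 2.03 in p53R245W/fl, 0.818 in p53R172H/fl and 1.26 in p53fl/fl tumours. Correlation with Hox 9 to 13 gave 1 gene past it by Pearson, Shox2, against 0 with all Hox genes. Of 84 values of Lhx8 and Lhx9 under alternatives, 23 moved by over 1 SD. Lhx8 and Lhx9 did not pass the filters at a minimum count of 50 or within set A. No paired analysis was possible because the genotypes share no tumour numbers. Depth limits the 8 low genes, many of whose values rest on fewer than 10 counts.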
